A study of Homo sapiens with 17 samples.

Results

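Potassium channel genes were taken as every gene whose symbol consists of KCN, further letters and a final number, in both tables of the series. This gave 95 of 60662 genes. CHP-134, an established human neuroblastoma line with amplified MYCN, was studied in culture and as xenografts. In culture, the groups were DMSO (solvent) and 2 µM ATRA, all-trans retinoic acid, given for 1, 3 or 6 days, with 2 libraries per group. As xenografts, luciferase-labelled CHP-134 cells grew under the skin of female athymic nude mice about 12 weeks old. There were 4 tumors from mice given RA (13-cis-retinoic acid, 25 mg/kg by oral gavage, 2 doses per day) and 5 control tumors. The labels call the control tumors untreated, while the study's text calls them vehicle-treated in places. Athymic nude mice lack T cells and keep their other stromal and immune cells. The line carries MYCN amplification in all 6 groups. The study calls the replicates of these cells independent. The labels do not say whether they came from separate cultures, so part of the spread behind the p-values in cells may be technical. In bulk RNA, a change within each cell and a change in which cells are present cannot be told apart, nor can fewer cells of a type and less RNA per cell. The study reports that most cells of this line die over the longest ATRA treatment. It describes the small share that survives as taking on neuron-like features. The libraries at 6 days may therefore come largely from surviving cells.

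Potassium channels let potassium ions leave or enter cells along their gradient, and in excitable cells they set the resting potential, end the action potential and limit repeated firing. Most are tetramers of pore subunits that open with voltage, with calcium or sodium inside the cell, or with G proteins and nucleotides, while two-pore-domain subunits form dimers that leak at rest. Neuroblastoma arises from the sympathetic lineage, in which KCNQ (M-type), Kv2, Kv4, ERG and BK channels shape firing as neurons mature. By symbol stem, the 95 members comprised 17 voltage-gated pore subunits, 10 electrically silent voltage-gated subunits, 5 KCNQ subunits, 8 EAG, ERG and ELK subunits, 8 calcium- and sodium-activated subunits, 16 inward rectifiers, 15 two-pore-domain subunits and 16 auxiliary subunits.

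Libraries of cells held 31607020 to 39422890 counts and libraries of tumors 17266484 to 29078822. Levels are given as CPM, each count taken relative to its library's total on the usual scale after TMM scaling over all 17 libraries. As for the labelled cell type, MYCN averaged at least 981 CPM in every group, and 7 to 9 of 9 adrenergic neuroblastoma markers averaged at least 1 CPM. These markers were not constant, and MYCN averaged 1964 CPM with DMSO and 981 CPM at 6 days. By the calls defined below, 3 of the 9 rose and 2 fell at 6 days against DMSO. A total of 5 members (KCNJ18, KCNK16, KCNK17, KCNK18 and KCNU1) had no count in any library, and 69 averaged at least 1 CPM in some group. The number at or above 1 CPM was 47 with DMSO, 48 at 1 day, 49 at 3 days and 61 at 6 days of ATRA, and it was 63 in RA tumors and 63 in control tumors. After a filter on low counts, 66 members were tested in cells, 67 in tumors and 76 across all libraries. A member was called where the adjusted p of edgeR's quasi-likelihood test (Benjamini-Hochberg over all genes tested) was under 0.05 and the difference exceeded 2-fold.

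The summed level of the 95 members was flat for 3 days of ATRA and much higher at 6 days. It was 880 and 876 CPM with DMSO, 840 and 845 CPM at 1 day, 867 and 866 CPM at 3 days, and 1593 and 1594 CPM at 6 days. In RA tumors it was 1167, 1185, 1159 and 1118 CPM, against 1006, 1044, 1032, 993 and 971 CPM in control tumors, so that the 2 tumor groups did not overlap. The sum of the KCNQ subunits was 470 and 476 CPM at 6 days, against 198 and 199 CPM with DMSO. That of the voltage-gated pore subunits was 435 and 431 CPM, against 204 and 207 CPM, and that of the calcium- and sodium-activated subunits was 204 and 197 CPM, against 86.5 and 82.7 CPM. The electrically silent subunits went the other way, with 35.0 and 37.4 CPM at 6 days, against 61.2 and 64.1 CPM with DMSO. These sums follow their highest members and do not stand for every gene of a class. The 5 highest members held 53.3 and 53.2% of the sum of all members at 6 days, against 41.5 and 41.1% with DMSO. Within the KCNQ class, KCNQ3 fell.

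**Figure D1:**
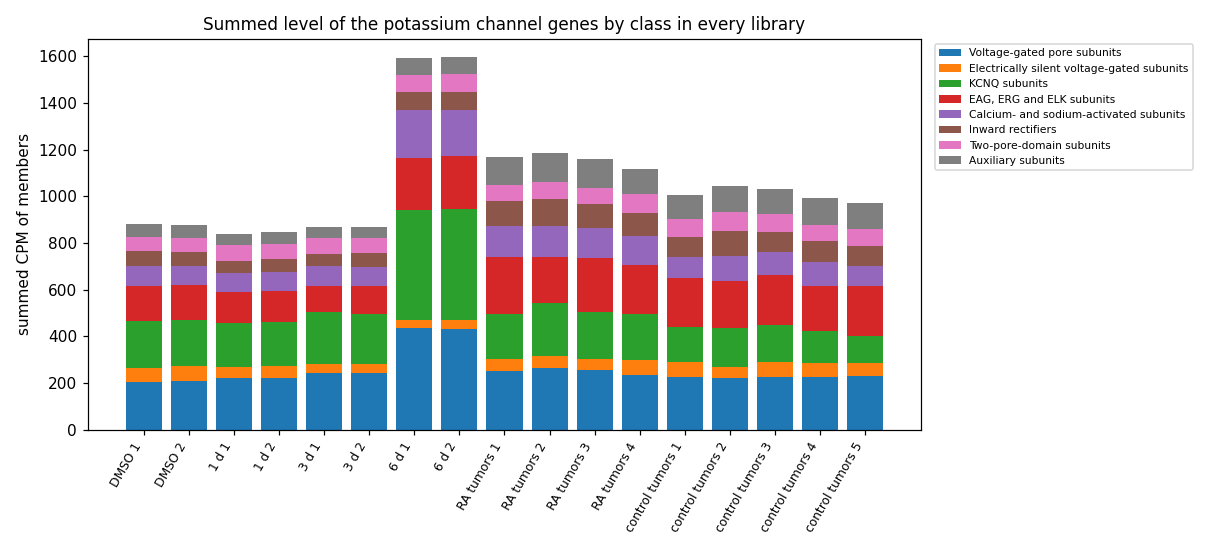
Summed CPM of the potassium channel genes in each of the 17 libraries (x axis), stacked by class of subunit (y axis, CPM). The bars at 6 days reach 1593 and 1594 CPM, and the 4 RA tumors (1118 to 1185 CPM) lie above the 5 control tumors (971 to 1044 CPM).

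Levels of different genes were compared per kilobase of annotated exon. KCNB2, which encodes the delayed rectifier Kv2.2, stood at 16.5 ± 0.107 CPM per kilobase with DMSO (SD, n = 2). At 6 days KCNB2 had 25.0 ± 1.24, KCND2 20.2 ± 0.216 and KCNH7 18.1 ± 0.296 CPM per kilobase (SD, n = 2), and the libraries of these neighbours did not overlap. KCNB2 led in RA tumors (21.8 ± 1.21 CPM per kilobase, n = 4) and in control tumors (20.6 ± 1.43, n = 5), where KCNH7, which encodes the ERG-type subunit Kv11.3, came second.

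After 1 day of ATRA, 4 of 66 members tested were called (6.06%), against 2.74% of all genes. The 3 members that rose (1.95% of all genes did) were KCNJ2, KCNN4 and KCNIP1, and the 1 that fell (0.791% of all genes) was KCNIP3. KCNJ2, which encodes the classical inward rectifier Kir2.1 that holds the resting potential near the potassium equilibrium, had 3.49 and 4.36 CPM at 1 day, against 1.42 and 1.16 CPM with DMSO (log2 difference 1.61 ± 0.18, SE; adjusted p = 7.15e-09). KCNN4, the intermediate-conductance calcium-activated channel, had 0.985 and 1.48 CPM, against 0.273 and 0.312 CPM (log2 2.08 ± 0.32, adjusted p = 3.24e-06). The other 2 calls concerned genes under 1 CPM. KCNIP1, a cytosolic partner of Kv4 channels, lost its call without DMSO library 1 (adjusted p = 0.0598), and KCNIP3 lost it without either DMSO library or without 1-day library 2 (highest adjusted p = 0.289). The median log2 difference of the members was -0.07, against 0.0026 for all genes.

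After 3 days, 13 of 66 members were called (19.7%), against 7.87% of all genes. There were 9 that rose (5.45% of all genes did) and 4 that fell (2.43% of all genes). The rises at mean levels of 1 CPM or more were KCNN4, KCND3, KCNJ2, KCNT1, KCNK12 and KCND2. KCNT1, the sodium-activated channel Slack, had 7.95 and 7.98 CPM at 3 days, against 2.37 and 2.62 CPM with DMSO (log2 1.71 ± 0.13, adjusted p = 3.9e-14). KCNJ2 had 4.01 and 4.97 CPM, close to its level at 1 day, so most of its rise had come by then. The falls were in KCNG1, KCNN1, KCNK1 and KCNJ11. KCNG1, an electrically silent subunit that modifies Kv2 channels and had the highest level per kilobase of its class with DMSO, had 18.3 and 16.0 CPM, against 40.2 and 41.5 CPM (log2 -1.22 ± 0.06, adjusted p = 3.25e-19). KCNN1, the small-conductance calcium-activated channel SK1, had 7.13 and 5.52 CPM, against 13.9 and 14.5 CPM (log2 -1.13 ± 0.11), and its difference slipped under 2-fold without 3-day library 2 (log2 -0.96). The calls for KCNC2, KCNJ11 and KCNK1 rested on genes near or under 1 CPM and were lost in 4, 3 and 2 of the 4 fits that each left out 1 library. Against 1 day, 5 of 66 members rose at 3 days (7.58% called, against 4.09% of all genes; 2.87% of all genes rose and 1.22% fell) and 0 fell.

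After 6 days, 36 of 66 members tested were called (54.5%), against 31.2% of all genes. In all, 26 rose (18.8% of all genes did) and 10 fell (12.3% of all genes). The median log2 difference of the members was 0.66, against 0.04 for all genes. All comparisons with DMSO share the same 2 DMSO libraries. The part of cell death and survival in the differences at 6 days was not tested. The step after 3 days was large: against 3 days, 25 members rose and 6 fell at 6 days (47% called, against 21.1% of all genes; 12.7% of all genes rose and 8.41% fell). Of the 29 members not tested in cells, most had few or no counts, among them KCNQ1, KCNA1 and KCNK4.

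**Figure D2:**
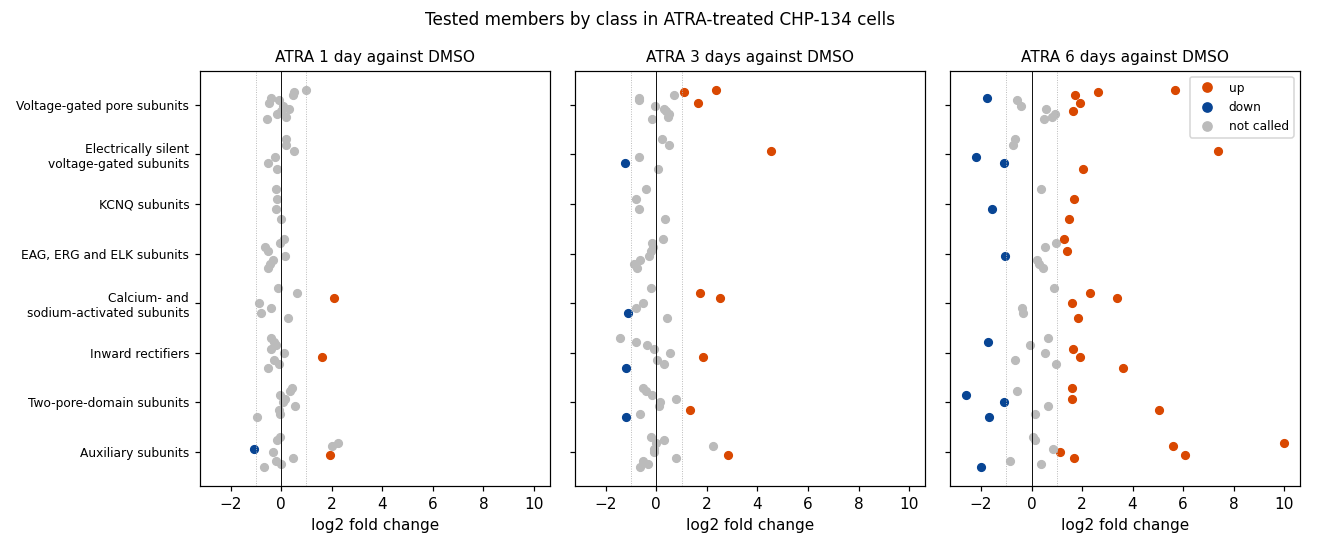
Log2 fold change against DMSO (x axis) of the 66 tested members, by class (rows), after 1, 3 and 6 days of ATRA (panels). Orange points rose and blue points fell past an adjusted p of 0.05 and 2-fold (dotted lines). Calls number 4, 13 and 36 in the 3 panels.

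Among the voltage-gated pore subunits, 5 of 12 tested rose at 6 days and 1 fell (50% called, against 31.2% of all genes). All 3 Kv4 genes, whose channels carry the fast transient A-type current that delays firing, were among those that rose. KCND2 (Kv4.2) had 18.9 and 20.2 CPM with DMSO, 27.1 and 28.1 CPM at 1 day, 41.0 and 40.3 CPM at 3 days, and 121 and 123 CPM at 6 days. It was higher at each later time, with no overlap between groups, and the difference at 6 days was 6.12-fold (log2 2.61 ± 0.04, adjusted p = 2.32e-34). KCND3 (Kv4.3) had 0.546 and 0.812 CPM with DMSO, 1.13 and 1.51 CPM at 1 day, 3.15 and 3.51 CPM at 3 days, and 35.7 and 34.3 CPM at 6 days (log2 5.67 ± 0.13 at 6 days, adjusted p = 3.8e-30). KCND1 (Kv4.1) had 6.18 and 5.83 CPM at 6 days, against 1.53 and 2.03 CPM with DMSO (log2 1.73 ± 0.17). The 3 genes lie on different chromosomes, and the size of the rise differed widely among them.

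The promoters of the Kv4 genes are shown because these genes rose together from unlike starting levels. The windows are from RefSeq (GRCh38.p14) and run from 250 bases before to 50 bases after an annotated start, along the strand of the gene. They lie at chr7:120272925-120273224 on the plus strand (KCND2), chr1:111989125-111989424 on the minus strand (KCND3, second listed start) and chrX:48971795-48972094 on the minus strand (KCND1). Capitals mark matches, on either strand, to AGGTCA or GGTTCA (half-sites that nuclear receptors such as the retinoic acid receptors can bind), CACGTG (the E-box of MYC and MYCN) and CAGATG (an E-box of neurogenic bHLH factors). None of the matches in these windows overlapped.
KCND2: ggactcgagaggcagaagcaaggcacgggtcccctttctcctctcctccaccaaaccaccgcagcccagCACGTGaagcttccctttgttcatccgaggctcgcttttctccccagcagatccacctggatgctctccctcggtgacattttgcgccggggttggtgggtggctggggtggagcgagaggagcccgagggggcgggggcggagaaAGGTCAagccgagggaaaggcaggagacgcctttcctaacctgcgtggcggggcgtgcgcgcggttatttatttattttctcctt
KCND3: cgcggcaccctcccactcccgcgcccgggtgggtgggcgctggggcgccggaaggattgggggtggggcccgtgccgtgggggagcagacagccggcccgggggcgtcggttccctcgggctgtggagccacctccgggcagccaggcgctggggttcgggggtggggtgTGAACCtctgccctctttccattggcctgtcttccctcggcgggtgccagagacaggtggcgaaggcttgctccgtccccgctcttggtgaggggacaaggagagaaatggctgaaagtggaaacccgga
KCND1: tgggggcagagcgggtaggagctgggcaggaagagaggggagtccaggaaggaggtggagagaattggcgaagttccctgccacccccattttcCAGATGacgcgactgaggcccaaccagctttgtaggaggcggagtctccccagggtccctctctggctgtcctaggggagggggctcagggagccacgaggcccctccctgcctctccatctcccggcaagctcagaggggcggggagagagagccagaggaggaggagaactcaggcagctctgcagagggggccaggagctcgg
KCND2 held CACGTG starting 181 bases and AGGTCA 35 bases before the start. KCND3 held the reverse complement of GGTTCA 80 bases before, and KCND1 held CAGATG 156 bases before. The other listed KCND3 window had no match. Of 35116 promoter windows in the RefSeq table, AGGTCA was found in 13.8%, GGTTCA in 8.62%, CACGTG in 7.26% and CAGATG in 14.7%. Of the 109 windows of members, which covered 71 of the 95 genes, the shares were 7.34%, 9.17%, 7.34% and 17.4%. A match is a string of letters and not a measured binding site.

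KCNB2 was strongly expressed throughout. It had 97.0 and 90.5 CPM at 6 days, against 61.6 and 62.2 CPM with DMSO, a difference of less than 2-fold (log2 0.57). In the Kv3 family, whose channels allow rapid firing, KCNC4 had 5.29 and 4.87 CPM at 6 days, against 16.8 and 16.6 CPM with DMSO (log2 -1.75 ± 0.09, adjusted p = 3.36e-19). KCNC1 had 38.04 and 39.6 CPM, against 50.02 and 51.8 CPM (log2 -0.42), and was not called. KCNC2 rose at under 1 CPM, and that call was lost with DESeq2 (adjusted p = 0.0779) and without DMSO library 2 or 6-day library 2. The 3 Kv1 genes tested differed by less than 2-fold. KCNA2, for instance, had 22.4 and 22.6 CPM at 6 days, against 15.3 and 15.6 CPM (log2 0.51).

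Among the 4 KCNQ subunits tested, 2 rose at 6 days and 1, KCNQ3, fell (75% called, against 31.2% of all genes). KCNQ3, which encodes a subunit of the M-channel that damps repeated firing, had 31.8 and 33.4 CPM with DMSO, 28.0 and 28.4 CPM at 1 day, 19.95 and 20.1 CPM at 3 days, and 11.8 and 10.7 CPM at 6 days. It was lower at each later time (log2 -1.57 ± 0.06 at 6 days, adjusted p = 2.56e-22). KCNQ5, another M-type subunit, had 12.4 and 12.7 CPM at 6 days, against 8.92 and 10.2 CPM with DMSO, and did not pass 2-fold (log2 0.37).

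In the EAG, ERG and ELK class, 2 of 8 members rose at 6 days, 1 fell and 5 were not called. The share called was 37.5%, close to the 31.2% of all genes. Between 3 and 6 days, by contrast, 5 of the 8 rose (62.5%, against 12.7% of all genes). KCNH2, the ERG channel that repolarises heart cells, had 51.9 and 50.8 CPM with DMSO, 38.2 and 35.8 CPM at 1 day, 27.5 and 26.8 CPM at 3 days, and 63.7 and 66.4 CPM at 6 days. It was lowest at 3 days, and at 6 days it was 2.29-fold above 3 days (adjusted p = 1.67e-22) and within 2-fold of DMSO (log2 0.31). KCNH7, the highest of the class per kilobase, had 91.4 and 89.3 CPM at 6 days, against 46.9 and 42.3 CPM with DMSO, just under the 2-fold line (log2 0.98). KCNH8 had 32.1 and 31.9 CPM, against 12.6 and 13.2 CPM (log2 1.28 ± 0.07). KCNH4 had 12.5 and 12.9 CPM, against 25.4 and 25.6 CPM (log2 -1.04 ± 0.07), a difference that slipped under 2-fold with upper-quartile scaling (log2 -0.88). KCNH5 rose as well (log2 1.42 ± 0.18).

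All 4 calcium- or sodium-activated subunits called at 6 days rose, out of 7 tested (57.1% called, against 31.2% of all genes). KCNMA1, the pore of the large-conductance BK channel, which opens with both voltage and calcium, had 27.0 and 24.7 CPM with DMSO, 29.9 and 31.7 CPM at 1 day, 34.3 and 33.9 CPM at 3 days, and 97.9 and 93.9 CPM at 6 days (log2 1.86 ± 0.05, adjusted p = 8.04e-29). KCNT1 reached 13.0 and 12.6 CPM, against 2.37 and 2.62 CPM (log2 2.32 ± 0.12). KCNN4 reached 3.11 and 3.27 CPM, against 0.273 and 0.312 CPM (log2 3.40 ± 0.29), and had a call at every time. KCNN3 rose too (log2 1.59 ± 0.26). KCNT2, with 71.3 and 70.9 CPM at 6 days against 38.4 and 36.6 CPM with DMSO, had the highest level per kilobase of the class and fell short of 2-fold (log2 0.89).

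Inward rectifiers were mostly low, and 3 of 9 tested rose at 6 days and 1 fell (44.4% called, against 31.2% of all genes). KCNJ11 and KCNJ8 encode Kir6.2 and Kir6.1, the alternative pores of ATP-sensitive channels that link potassium flux to metabolism, and they moved apart. KCNJ11 had 0.437 and 0.250 CPM with DMSO, 0.253 and 0.223 CPM at 1 day, 0.133 and 0.155 CPM at 3 days, and 4.89 and 4.04 CPM at 6 days (log2 3.63 ± 0.28, adjusted p = 2.82e-14). KCNJ8 had 3.60 and 3.37 CPM at 6 days, against 11.9 and 10.8 CPM with DMSO (log2 -1.74 ± 0.11, adjusted p = 1.38e-16). KCNJ2 kept its early rise with 4.79 and 5.29 CPM (log2 1.93 ± 0.18). KCNJ12 (Kir2.2), the highest of the class per kilobase, had 35.3 and 36.7 CPM, against 17.7 and 17.9 CPM (log2 0.98), and was not called. It shares near-identical sequence with KCNJ18, which was listed at 0 throughout, so reads of the 2 genes may not be separable. KCNJ6, which encodes the G protein-gated GIRK2, had 22.7 and 24.4 CPM, against 24.5 and 23.4 CPM (log2 -0.06).

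Two-pore-domain genes were split evenly, with 3 of 9 tested up and 3 down at 6 days (66.7% called, against 31.2% of all genes). KCNK12, a silent member of this family, had 0.873 and 0.781 CPM with DMSO, 0.760 and 0.782 CPM at 1 day, 2.25 and 1.86 CPM at 3 days, and 27.2 and 28.9 CPM at 6 days (log2 5.04 ± 0.13, adjusted p = 1.44e-28). KCNK3 and KCNK9, which encode the acid-sensitive leak channels TASK-1 and TASK-3, also rose, KCNK3 with 20.6 and 20.4 CPM against 6.60 and 6.53 CPM (log2 1.61 ± 0.08). KCNK5, which encodes the alkaline-activated TASK-2, had 12.6 and 13.5 CPM with DMSO, 13.4 and 11.8 CPM at 1 day, 11.4 and 10.9 CPM at 3 days, and 2.12 and 2.31 CPM at 6 days (log2 -2.59 ± 0.12, adjusted p = 2.79e-21). The fall came after 3 days. KCNK2, the stretch-sensitive TREK-1 and the highest of the class per kilobase, had 16.3 and 15.04 CPM at 6 days, against 32.7 and 33.1 CPM (log2 -1.10 ± 0.06), a fall that slipped under 2-fold with upper-quartile scaling (log2 -0.94). KCNK1 (TWIK-1) had 0.397 and 0.256 CPM, against 1.15 and 0.906 CPM (log2 -1.68 ± 0.39).

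Silent and auxiliary subunits, which form no channel of their own, included the largest ratios. KCNG4 had 346 counts over the 2 libraries at 6 days and 2 counts over the 2 DMSO libraries, a ratio of 193 with an exact 95% interval of 53.1 to 1600 that covers counting error only. In CPM it had 5.75 and 5.51 at 6 days, against 0.0546 and 0. KCNG3, by contrast, had 9.93 and 10.9 CPM with DMSO, 8.05 and 9.19 CPM at 1 day, 6.26 and 6.21 CPM at 3 days, and 2.25 and 2.40 CPM at 6 days (log2 -2.19 ± 0.13, adjusted p = 6.37e-18). KCNG1 had 19.1 and 20.04 CPM at 6 days, against 40.2 and 41.5 CPM with DMSO (log2 -1.09 ± 0.06, and -0.93 with upper-quartile scaling, under 2-fold). KCNF1 rose (log2 2.04 ± 0.35), with 1.42 and 1.80 CPM against 0.273 and 0.500 CPM. KCNIP1, one of the KChIP proteins that bring Kv4 channels to the membrane, had 0.0819 and 0.156 CPM with DMSO, 0.422 and 0.475 CPM at 1 day, 0.928 and 0.745 CPM at 3 days, and 8.43 and 8.24 CPM at 6 days (log2 6.08 ± 0.28, adjusted p = 4.21e-21). KCNIP2 rose too (log2 1.14 ± 0.18), as did KCNIP4 at under 1 CPM on average. KCNMB1, the smooth-muscle beta subunit of BK channels, had 3.90 and 4.01 CPM at 6 days (243 counts) and no count in either DMSO library, so that it was at least 90.5-fold higher against a floor of 3 counts over the DMSO group. This gene lies wholly inside KCNIP1 on the other strand of chromosome 5, with 1.84% of its exon bases overlapped by exons on that strand. Both genes rose at 6 days, and whether reads of one were counted for the other was not tested. Of 7 mural cell markers, 1 rose at 6 days and 3 fell (median log2 difference -0.87). RGS5 averaged 41.31 CPM, against 4.457 CPM with DMSO, and the smooth muscle genes ACTA2 and TAGLN averaged 1.315 and 9.834 CPM, against 4.752 and 11.47 CPM. These libraries were made from cultures of the CHP-134 line, and a link between these markers and the KCNMB1 values was not tested. KCNAB1, a Kv1 beta subunit, fell at under 1 CPM (log2 -2.01 ± 0.44).

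**Figure D3:**
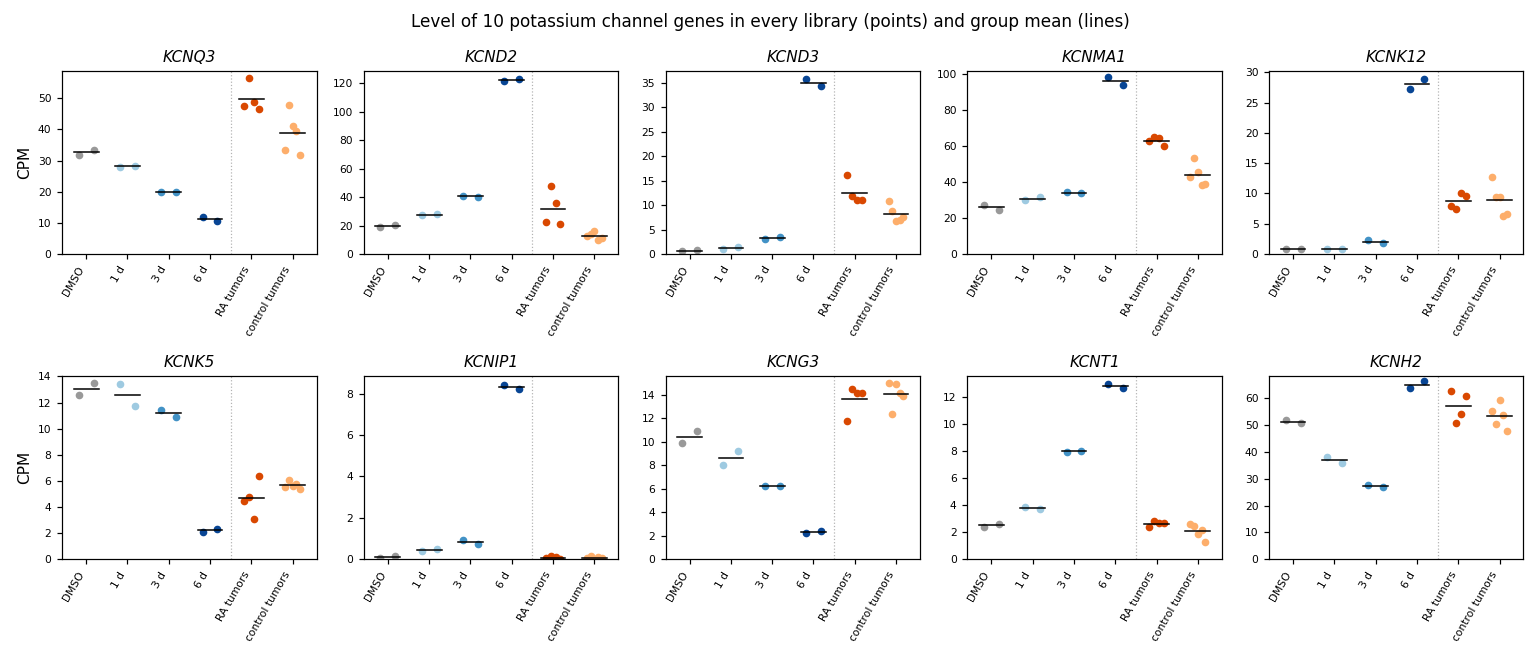
Level in CPM (y axes, each from 0) of 10 potassium channel genes in every library (points) with the group mean (lines): DMSO and 1, 3 and 6 days of ATRA in cells, then RA tumors and control tumors. KCND2, KCND3, KCNMA1, KCNK12, KCNIP1 and KCNT1 are highest at 6 days, KCNQ3, KCNK5 and KCNG3 are lowest there, and KCNH2 is lowest at 3 days.

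Of 38 genes outside the family whose products work with potassium channels, 34 were tested in cells, and 10 rose and 2 fell at 6 days, when 18.8% of all genes rose and 12.3% fell. The median log2 difference of this list was 0.56, against 0.04 for all genes. Partners of channels that rose were among them. ABCC8, the sulfonylurea receptor that joins Kir6.2, rose by 3.48 ± 0.09 on the log2 scale, and DPP6, which accelerates Kv4 channels, by 2.97 ± 0.05. The scaffolds and anchors DLG2 (log2 6.21), CNTN2 (5.73), ANK3 (1.94) and ANK2 (1.18) also rose, as did LGI1, ATP1B2 and TMEM38A, while AKAP5 (-1.93) and TMEM38B (-1.17) fell. At 1 day 2 of the 34 rose, CNTN2 and DLG2 (1.95% of all genes rose). At 3 days 4 rose, both of these among them (5.45% of all genes rose), and 1 fell, LRRC26 (log2 -1.68 ± 0.48, adjusted p = 0.00374). Among marker lists of other cell types, the sum of 7 endothelial markers was 144.6 to 155.9 CPM at 6 days, against 1.583 to 2.062 CPM with DMSO, nearly all of it CLDN5, with TEK and EMCN at 0. The sum of 5 skeletal muscle markers was 7.566 to 7.899 CPM, against 31.85 to 31.99 CPM, nearly all of it CKM, with MYH1 and MYH2 at 0. That of 7 fibroblast markers was 10.77 to 11.32 CPM, against 24.96 to 25.38 CPM. None of 7 leukocyte markers averaged 1 CPM. The part of these markers in the results was not tested.

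In xenografts, 2 of 67 members tested were called between RA tumors and control tumors (2.99%), against 0.284% of all genes. KCND2 rose (0.246% of all genes did) and KCNK1 fell (0.0379% of all genes). KCND2 had 22.9, 47.6, 35.7 and 21.0 CPM in RA tumors, against 12.4, 14.4, 16.1, 10.2 and 11.4 CPM in control tumors (log2 1.301 ± 0.25, adjusted p = 0.0434). Every RA tumor lay above every control tumor, and the RA tumors spread over more than 2-fold. KCNK1 had 0.671, 0.442, 0.486 and 0.490 CPM in RA tumors, against 0.918, 0.853, 1.74, 1.63 and 1.15 CPM in control tumors (log2 -1.29 ± 0.30, adjusted p = 0.0482). Both calls stood close to the threshold. KCND2 lost its call without any 1 of the 5 control tumors and without RA tumor 1 or 3, with log2 differences of 1.04 to 1.47 and adjusted p-values of 0.011 to 0.133 over the 9 fits that left out 1 library. KCNK1 kept its call in 1 of those fits, the one without control tumor 2 (adjusted p-values 0.0308 to 0.177).

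At any fold, 6 members passed an adjusted p of 0.05 (8.96% of those tested), against 1.62% of all genes. Besides KCND2 and KCNK1 they included KCNMA1, KCNH1 and KCNC4. KCNMA1 had 62.4, 64.9, 64.5 and 59.9 CPM in RA tumors, against 42.9, 53.0, 45.4, 38.5 and 38.9 CPM in control tumors (log2 0.52 ± 0.09, adjusted p = 0.011). The tumor groups did not overlap. KCNC4 had 7.60 to 8.62 CPM in RA tumors, against 9.86 to 14.9 CPM in control tumors (log2 -0.58 ± 0.13, adjusted p = 0.0325). KCNH1, the EAG channel found in many tumors, averaged 39.7 CPM in RA tumors, against 30.6 CPM in control tumors (log2 0.37 ± 0.09, adjusted p = 0.0435).

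In 11 of the 67 members (16.4%) every RA tumor lay above every control tumor, against 3.88% of all genes, and in 3 members (4.48%) every RA tumor lay below, against 1.93%. The 11 included KCNQ5, KCNMA1, KCNT2, KCNN1, KCNN4, KCND2, KCND3, KCNJ9, KCNJ12 and KCNK6, and the 3 were KCNC4, KCNJ14 and KCNK1. Most of these separations were small and not called. KCND3, for example, had 16.2, 11.8, 11.1 and 11.1 CPM in RA tumors, against 10.9, 8.86, 6.82, 6.87 and 7.59 CPM in control tumors (log2 0.61 ± 0.16, adjusted p = 0.0703). The median log2 difference of the members was 0.08, against -0.0081 for all genes. The summed level of 5 skeletal muscle markers was 0.448 to 1.53 CPM in RA tumors, against 83.3 CPM in control tumor 1 and 0.890 to 4.63 CPM in the other control tumors. That of 7 fibroblast markers was 22.5 to 35.4 CPM in RA tumors, against 24.7 to 100.5 CPM in control tumors, the highest in control tumor 4. The groups overlapped in both sums, and none of the muscle or fibroblast markers tested (1 and 4) was called. Of 9 adrenergic neuroblastoma markers 1 rose and 0 fell, and of 7 mural cell markers 1 rose and 0 fell. PHOX2A averaged 9.329 CPM in RA tumors, against 4.571 CPM in control tumors, and RGS5 10.13 CPM, against 4.754 CPM. Their part in the members' differences was not tested. Of the 38 partner genes, 33 were tested in tumors and 1 was called, CNTN2 (log2 1.39 ± 0.16, adjusted p = 0.00578).

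**Figure D4:**
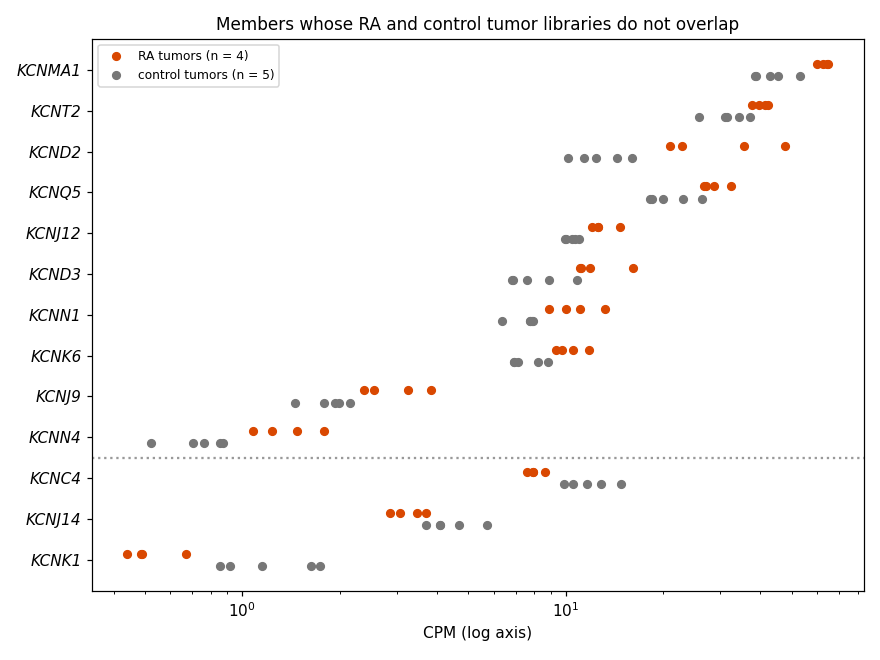
CPM (x axis, log scale) of 13 of the 14 members whose tumor groups did not overlap, with 4 RA tumors (upper row of each gene) and 5 control tumors (lower row). The 10 genes above the dotted line are higher in every RA tumor, and the 3 below it are lower.

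The effect of retinoid in tumors and the effect of 6 days in culture were set against each other as an interaction term. The agents, the doses, the time and the setting differ together and cannot be told apart. The tumor effect minus the culture effect was called in 34 of 76 members (44.7%), against 20.9% of all genes, and it was above 0 in 8 (7.78% of all genes) and below 0 in 26 (13.1% of all genes). The members' median was -0.57, against -0.12 for all genes. KCND3 had a log2 difference of 0.61 in tumors and 5.67 in culture (tumor minus culture -5.09 ± 0.30, adjusted p = 7.64e-11), and its level in control tumors, 8.20 ± 1.70 CPM, was already above the 0.679 ± 0.188 CPM of DMSO cells. KCNK12 had -0.02 in tumors and 5.04 in culture, KCNT1 0.35 and 2.32, and KCNMA1 0.52 and 1.86, each with a called difference. For KCND2 the values were 1.301 and 2.61 (tumor minus culture -1.34 ± 0.38, adjusted p = 0.0125), and that call was lost without DMSO library 1 (adjusted p = 0.0584). Among members that fell in culture, KCNQ3 had a log2 difference of 0.36 in tumors and -1.57 in culture (tumor minus culture 1.90 ± 0.17), KCNK5 -0.28 and -2.59, and KCNG3 -0.04 and -2.19.

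**Figure D5:**
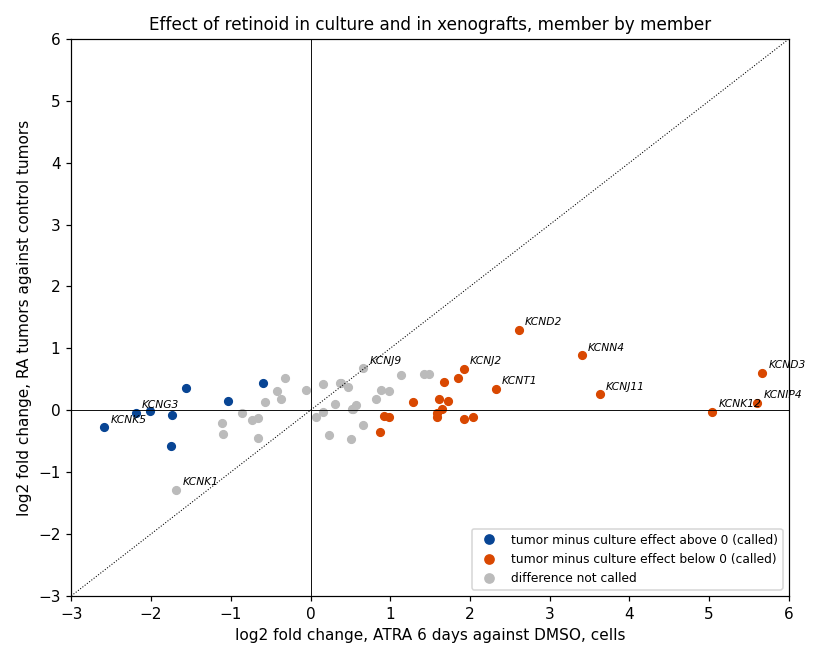
Log2 fold change at 6 days of ATRA against DMSO in cells (x axis) and in RA tumors against control tumors (y axis) for the 61 members tested in both. Orange and blue points have a called difference between the 2 effects, below and above 0, and the dotted line marks equal effects. Most points lie near a tumor effect of 0, and KCND2 has the highest tumor effect (1.301).

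Xenografts also differed from cells in culture, but the library kit and the setting changed together and cannot be told apart. RA tumors had 37 members up and 6 down against DMSO cells, of 76 tested (56.6%, against 43.9% of all genes; 32% of all genes rose and 11.9% fell). Control tumors had 31 up and 6 down (48.7%, against 42.9% of all genes; 31.5% rose and 11.4% fell), with the same DMSO libraries. The share called in control tumors was close to that of all genes. The median log2 difference of all genes was itself 0.25 in both comparisons, and that of the members was 0.98 for RA tumors and 0.66 for control tumors. Markers of other cell types moved with these comparisons. All 3 leukocyte markers tested and 3 of 4 Schwann cell markers rose in both kinds of tumor. Of the 9 adrenergic neuroblastoma markers, 2 rose and 4 fell in each kind of tumor. The leukocyte sum was 2.057 to 2.965 CPM in RA tumors and 2.257 to 4.158 CPM in control tumors, against 0.2729 to 0.531 CPM in DMSO cells. SOX10, a Schwann cell marker, averaged 1.672 CPM in RA tumors and 1.594 CPM in control tumors, with no count in DMSO cells. The fibroblast sum was 22.5 to 35.4 CPM in RA tumors and 24.7 to 100.5 CPM in control tumors, against 24.96 to 25.38 CPM in DMSO cells. Their part in the members' differences was not tested.

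Several of the largest tumor values belong to genes that share their place with a gene on the other strand. Of all genes tested with at least 50% of their span inside a protein-coding gene on the other strand, 68.3% were called up in control tumors against DMSO cells, against 23.8% of the other genes, and among protein-coding genes alone the shares were 30.3% and 17.1%. Members at or over that limit were KCNJ13 (inside GIGYF2), KCNK12 (wholly inside its neighbour), KCNMB1 (inside KCNIP1), KCNS2 (inside STK3), KCNV2 (76.4% inside PUM3), KCNC1 (56.3% inside SERGEF) and KCNJ11 (50.4% inside NCR3LG1). For these, reads of the gene and of its neighbour cannot be told apart, since the strand setting of the counting is not given in the sources used here. KCNJ13, an inward rectifier of epithelia, had 10.9, 9.09, 8.57 and 9.56 CPM in RA tumors and 9.77, 8.34, 10.5, 8.81 and 9.22 CPM in control tumors, against no count in either DMSO library (at least 213-fold higher in control tumors, against a floor of 3 counts over the DMSO group). With these 7 members left out, a count added after the data were seen, 26 of 69 members rose and 5 fell in control tumors (44.9% called, close to the 42.9% of all genes).

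Outside those genes, KCNK9 and KCNAB1 stood out in tumors. Any removal of mouse reads is not given in the sources used here, and the part of host reads in the tumor values was not tested. KCNK9 had 20.6, 19.3, 17.4 and 24.5 CPM in RA tumors and 23.9, 23.1, 20.5, 17.1 and 21.2 CPM in control tumors, against 0.518 and 0.437 CPM in DMSO cells (log2 5.40 ± 0.25 for RA tumors and 5.45 ± 0.24 for control tumors). KCNAB1 had 28.0, 29.1, 29.6 and 24.5 CPM in RA tumors and 23.3, 31.3, 23.7, 29.5 and 31.5 CPM in control tumors, against 0.819 and 0.875 CPM in DMSO cells (log2 5.03 ± 0.20 and 5.04 ± 0.19). The tumor groups overlapped in both genes. KCNIP4, the auxiliary gene with the highest level per kilobase, averaged 17.9 CPM in RA tumors and 16.4 CPM in control tumors, against 1 count in the 2 DMSO libraries together, and 46.33% of its exon bases overlap exons on the other strand. KCNS1, a silent subunit active in sensory neurons, had 0 counts in all 8 libraries of cells and averaged 1.54 CPM in RA tumors and 1.496 CPM in control tumors. KCNJ3, the GIRK1 partner of GIRK2, averaged 9.51 CPM in RA tumors and 9.40 CPM in control tumors, against 0.903 CPM in DMSO cells (log2 3.38 ± 0.31 and 3.36 ± 0.30). KCNIP3 averaged 4.74 CPM in RA tumors and 6.03 CPM in control tumors, against 0.669 CPM in DMSO cells (log2 2.81 ± 0.28 and 3.16 ± 0.28). Members lower in both kinds of tumor than in DMSO cells included KCNG1 (log2 -1.75 ± 0.19 in RA tumors and -1.36 ± 0.18 in control tumors) and KCNH4 (-1.10 ± 0.13 and -1.25 ± 0.12). With upper-quartile scaling both KCNH4 values slipped under 2-fold (-0.84 in RA tumors and -0.98 in control tumors).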

How the data were processed

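Expected counts per gene from RSEM 1.3.3 were deposited by the authors in 1 table for cells and 1 for tumors, after trimming with Trim Galore 0.4.4 and alignment to hg38 with STAR 2.7.10a. The annotation release, the strand setting and any removal of mouse reads are not given in the sources used here. Cell libraries were made with an Illumina stranded total RNA kit and tumor libraries with a KAPA kit and ERCC spike-ins. Counts were rounded to whole numbers, filtered with filterByExpr (minimum count 10) and scaled by TMM. The quasi-likelihood test of edgeR 4.0.16 (limma 3.58.1, R 4.3.3) was fitted to the 8 cell libraries, to the 9 tumor libraries, and to all 17 for comparisons between cells and tumors and for the interaction. Adjusted p-values are Benjamini-Hochberg values over all genes tested, SE was derived from the F statistic, and calls required an adjusted p under 0.05 and a difference over 2-fold. The tests were checked on simulated counts. Values of every library are given for up to 12 called members per comparison with the largest log2 differences among those averaging at least 1 CPM in the higher group, and for the member with the highest level per kilobase in each class. Further members were named after their values were seen. Members and lists were chosen with earlier results of these data known. Alternatives were 3 other scalings (median ratio, upper quartile, total counts), no filter on low counts, fits of the compared groups only, a replicate block, DESeq2 1.42.0 and leaving out each library. A count of calls without members lying at least 50% inside a protein-coding gene on the other strand was added after seeing the data. This count used the main fits. Promoter windows came from RefSeq (GRCh38.p14). Results of some genes are not reported here, while counts, class sums and medians include every member.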

Additional observations from a re-analysis of the deposited data

Results flagged for a closer look

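In 34 members the retinoid effect in tumors and the 6-day effect in culture differed by the interaction test of edgeR (adjusted p under 0.05 and over 2-fold). Values for 32 of them follow, as log2 differences, tumor effect minus culture effect. Among voltage-gated pore subunits they were -5.09 for KCND3, -1.34 for KCND2, -1.59 for KCND1, -2.09 for KCNC2, -1.05 for KCNA4 and 1.14 for KCNC4. Among silent subunits they were -8.64 for KCNG4, -2.16 for KCNF1 and 2.12 for KCNG3. KCNQ3 had 1.90. In the EAG, ERG and ELK class KCNH4 had 1.16, KCNH7 -1.12 and KCNH8 -1.18. Among calcium- and sodium-activated subunits KCNMA1 had -1.37, KCNN3 -1.73, KCNN4 -2.55 and KCNT1 -2.0003. Inward rectifiers gave -1.29 for KCNJ2, 1.64 for KCNJ8, -3.40 for KCNJ11 and -3.89 for KCNJ13. Two-pore-domain subunits gave -5.09 for KCNK12, -1.46 for KCNK3, 2.29 for KCNK5, 1.00 for KCNK6 and -1.66 for KCNK9. Auxiliary subunits gave 1.97 for KCNAB1, -1.73 for KCNE5, -6.10 for KCNIP1, -1.25 for KCNIP3, -5.45 for KCNIP4 and -8.66 for KCNMB1. KCNG4, KCNIP1, KCNE5 and KCNMB1 were too low in tumors, and KCNJ13 too low in cells, to be tested there alone, so their fitted values depend on the prior count. In the 13 fits that each left out 1 library, KCNJ2 lost its call in 8, KCNK6 in 7, KCNJ13 in 4, KCNE5 in 3, KCNA4 and KCNC2 in 2 each, and KCND2, KCNIP3 and KCNN3 in 1 each.

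Among 30 tumor groups of 15 members, 2 had a library far from the rest, where chance gives about 1 in 20. RA tumor 1 had 16.2 CPM of KCND3, with the other RA tumors at 11.1 to 11.8 CPM. Control tumor 2 had 0.806 CPM of KCNS1, with the other control tumors at 1.58 to 1.74 CPM.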

How the results depend on the processing

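Over 205 called member values and 2751 values under alternatives, 0 changed sign and 147 lost the call. The count for RA tumors against control tumors, 2, fell to 1 with upper-quartile scaling, without a filter on low counts, with a replicate block and with DESeq2, which gave KCNK1 no adjusted p. Leaving out 1 library gave 0 to 1. KCND2 had log2 differences of 1.20 to 1.31 under the alternatives that kept every library. The count at 1 day, 4, ranged from 2 (without DMSO library 1) to 5. The other counts stayed within 1.5 times: 10 to 13 at 3 days, 33 to 38 at 6 days, 31 to 39 for control tumors against DMSO, 37 to 46 for RA tumors against DMSO and 28 to 36 for the interaction. Upper-quartile scaling moved the median log2 difference of all genes to 0.203 at 6 days and to 0.515 for control tumors against DMSO, and with it the 6-day falls of KCNG1, KCNK2 and KCNH4 slipped under 2-fold.

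The replicate block gave 4, 12, 36, 5, 31, 1, 35, 43 and 34 calls, in the order 1, 3 and 6 days against DMSO, 3 against 1 day, 6 against 3 days, RA against control tumors, control and RA tumors against DMSO, and interaction. Same-numbered libraries did not deviate together over all genes (correlations -0.252 to 0.0671). With 2 libraries per group of cells this check is weak and cannot exclude a shared batch. The labels do not say whether same-numbered libraries shared a culture or a batch. Members under 1 CPM are limited by depth, and 29 of 95 could not be tested in cells.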
